A study of Xenopus tropicalis with 20 samples.

Results

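The genes described here are 7 genes of amino acid breakdown in the liver of the western clawed frog Xenopus tropicalis: uroc1, amdhd1, ftcd, mat1a, got2, tat and hpd. They were found by their exact gene symbol in the deposited gene tables, where they make up 7 of 20372 named genes. The symbols had been chosen by the FPKM levels of these genes in the 4 groups of the same 20 libraries. Their levels, fold changes and calls below are therefore a description and support nothing by themselves. Of the 7, 6 passed the filter on low values and were tested among 10228 genes, and hpd did not.

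The liver is the main organ in which vertebrates take surplus amino acids apart for energy, for glucose and for small carbon units. Histidine is broken down in a chain of 4 enzymes: histidine ammonia-lyase (hal) removes ammonia to give urocanate, urocanase (uroc1) adds water, imidazolonepropionase (amdhd1) opens the ring, and formiminotransferase cyclodeaminase (ftcd) passes the last carbon to folate. Methionine adenosyltransferase (mat1a) makes S-adenosylmethionine, the methyl donor of the cell. Aspartate aminotransferase of the mitochondrion (got2) exchanges amino groups between glutamate and aspartate and carries one step of the malate-aspartate shuttle. Tyrosine aminotransferase (tat) and hydroxyphenylpyruvate dioxygenase (hpd) begin the breakdown of tyrosine, and in mammals tat is a classic gene induced by glucocorticoids and fasting.

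Livers came from mature females in 4 groups of 5 libraries. F2 mixture and F1 mixture females were the second and first generation bred from founders (F0) that had been kept at 50 ng/L with benzo[a]pyrene, a combustion product, and triclosan, an antimicrobial, from the tadpole stage to adulthood. F2 control and F1 control females were the second and first generation without that ancestry. All of the females sampled were unexposed themselves. Each replicate used 15 mg of liver, a stranded mRNA kit and 75 bp reads. The labels leave unsaid whether 50 ng/L was meant per compound and which females shared a clutch, so p-values may measure the spread between sisters. The control reads had first been deposited with an earlier series, so group and time of preparation or sequencing cannot be told apart.

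The unit is FPKM (fragments scaled by transcript length and mapped fragments), divided by 1 scaling factor per library, and is called the scaled FPKM below. Depth, inferred roughly from the deposited confidence limits, was 7896246 to 16704801 fragments per library. The liver label fitted the markers. Summed over the 10 hepatocyte markers with a value in every library, the level was 4897 to 15512 scaled FPKM in F2 mixture, 11646 to 18871 in F2 control, 7270 to 17867 in F1 mixture and 4416 to 12064 in F1 control livers. Markers of ovary and oocytes summed to at most 4.99 in any library. Among 16 pancreas markers 15 averaged under 1 in every group, with the lipase gene pnlip and the chymotrypsinogen gene ctrb1 at 0 in all libraries, and amy2a, an amylase, was the exception. Library F2 mixture 2 had the lowest weight of all 20 in limma's library weighting (0.288), followed by F1 mixture 1 (0.447) and F2 control 1 (0.532). The results were also computed without these 3.

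Among the histidine genes, uroc1 (chromosome 4, 132977433 to 132999424, UCB_Xtro_10.0) varied most. It had 363, 85.4, 153, 393 and 313 scaled FPKM in F2 mixture livers 1 to 5, against 42.1, 13.2, 40.4, 176 and 48.3 in F2 control livers 1 to 5. It had 58.5, 70.7, 222, 35.7 and 92.9 in F1 mixture livers 1, 4, 8, 9 and 13, against 120, 228, 189, 376 and 508 in F1 control livers 1, 2, 3, 4 and 6. In F2 the mixture livers were high and 4 of 5 control livers were low, and the ranges overlapped through F2 control 4 and F2 mixture 2 and 3. In F1 the order of the groups was the other way round, again with overlap.

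The group means of uroc1 were 261 ± 135 scaled FPKM in F2 mixture and 63.9 ± 63.9 in F2 control livers (SD, n = 5 each). They were 96.0 ± 73.6 in F1 mixture and 284 ± 156 in F1 control livers. The fitted log2 fold change was 2.28 ± 0.59 in F2 (SE, adjusted p = 0.00856 by limma) and -1.65 ± 0.59 in F1 (adjusted p = 0.32, unadjusted p = 0.0112). The difference between the F2 and F1 effects was 3.93 ± 0.84 on the log2 scale (adjusted p = 0.00412). The authors' deposited table marked uroc1 as significant in both generations, with log2 fold changes of 1.93 in F2 (q = 0.000955) and -1.54 in F1 (q = 0.0285).

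The other members of the histidine chain did not follow uroc1. The gene of the next enzyme, amdhd1 (chromosome 3, 57063313 to 57073326), had 8.03, 3.76, 11.3, 12.3 and 11.2 scaled FPKM in F2 mixture livers, against 11.3, 11.5, 13.7, 13.1 and 14.9 in F2 control livers. It had 27.5, 18, 13.4, 12.1 and 11.8 in F1 mixture livers, against 18.4, 22.8, 19.4, 17.2 and 17.3 in F1 control livers. The mixture groups spread over a wider range than the control groups, and F2 mixture 2 was the lowest of the 20 libraries and F1 mixture 1 the highest. The log2 fold change was -0.51 ± 0.25 in F2 (adjusted p = 0.139) and -0.25 ± 0.25 in F1 (adjusted p = 0.680).

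The gene of the last enzyme, ftcd (chromosome 9, 61227535 to 61251815), had 61.9, 12.5, 49.5, 38.3 and 42.2 scaled FPKM in F2 mixture livers, against 67.7, 30.8, 30.8, 38.1 and 42.4 in F2 control livers. It had 37.4, 38.2, 16.3, 22.4 and 21.9 in F1 mixture livers, against 23.1, 35.5, 18.8, 17.9 and 46.0 in F1 control livers. All 4 groups overlapped. The log2 fold change was -0.14 ± 0.37 in F2 (adjusted p = 0.809), which took the other sign without F2 mixture 2 (0.22), and -0.03 ± 0.37 in F1 (adjusted p = 0.979).

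**Figure D1:**
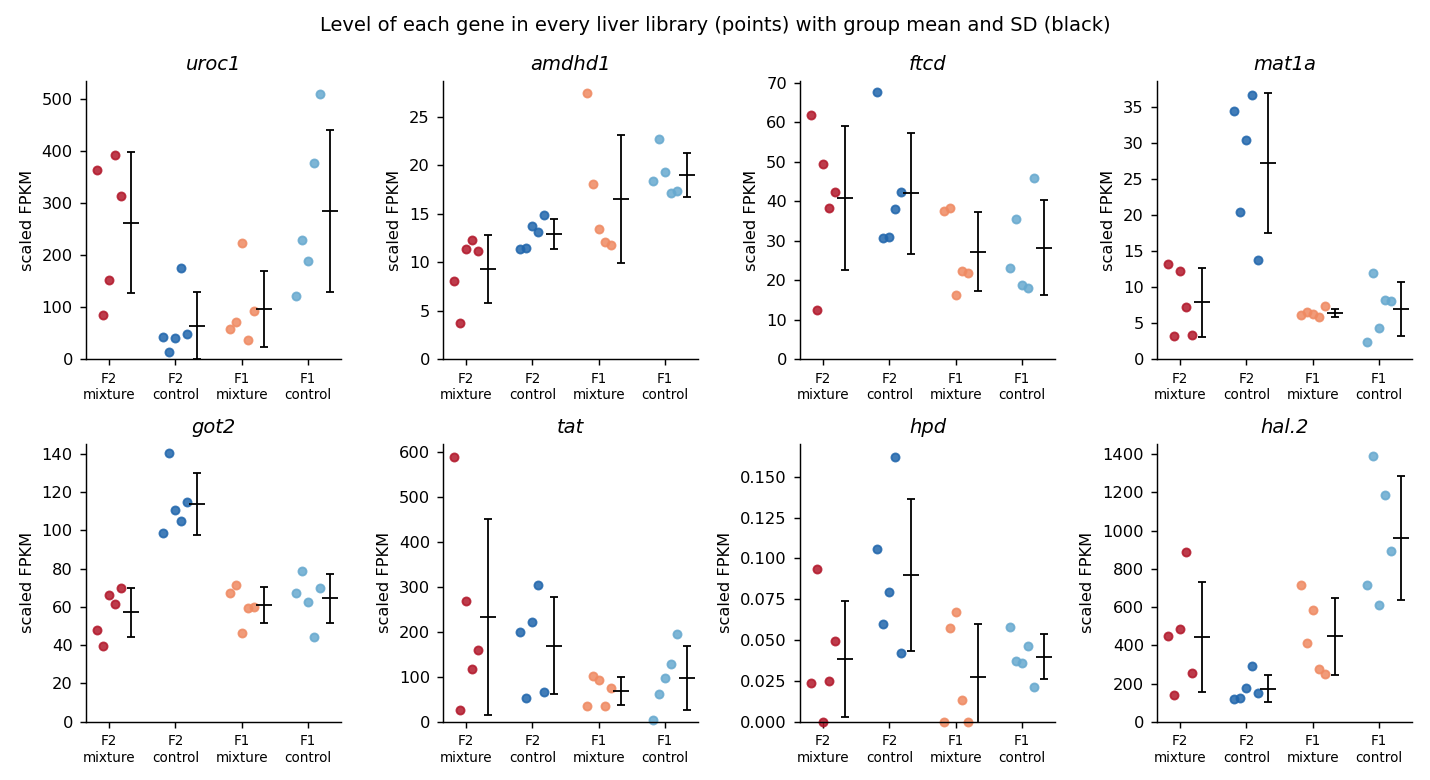
Scaled FPKM (linear axis from 0) of the 7 genes and of hal.2 in each of the 20 libraries, by group, with the group mean and SD in black and SD bars cut off at 0. The F2 control livers stand low for uroc1 and high for mat1a and got2 (98.4 to 140 scaled FPKM for got2), and hpd stays under 0.17 in every library.

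The entry enzyme of the chain was not among the 7 genes. It came from a list drawn up with earlier results of these data known, so its levels are a description as well. Of the 2 copies of histidine ammonia-lyase, hal.2 (chromosome 3, 57081029 to 57095235) was expressed, and hal.1 stayed at or under 0.549 FPKM and 34 inferred fragments in every library. The copies lie 13873 bp apart, and reads shared between them may be split, so the level of each copy is uncertain to that extent. The gene hal.2 starts 7702 bp after the end of amdhd1 on the same chromosome.

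In F2 mixture livers hal.2 had 450, 138, 488, 889 and 253 scaled FPKM, against 118, 125, 176, 291 and 153 in F2 control livers. It had 717, 410, 584, 277 and 248 in F1 mixture livers, against 717, 1390, 612, 1187 and 896 in F1 control livers. The F2 control livers were the lowest group and the F1 control livers the highest, as for uroc1. It rose in F2 mixture livers by a log2 fold change of 1.17 ± 0.42 (adjusted p = 0.0477 by limma), and stood at -1.15 ± 0.42 in F1 (adjusted p = 0.323). The difference between the effects was 2.33 ± 0.60 (adjusted p = 0.0119). The F2 call was lost under 16 of 32 alternatives, among them leaving out F2 mixture 1, 3 or 4 (adjusted p = 0.0836, 0.102 and 0.154), F2 control 1, 2, 3 or 5 (0.102, 0.0991, 0.0694 and 0.0849), F1 mixture 4 (0.0553) or F1 control 1, 4 or 6 (0.0536, 0.0540 and 0.0545). The authors' deposited table marked hal.2 as significant in F2 (1.46, q = 0.0103) and not in F1 (-1.09, q = 0.352).

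A ratio of 2 genes within a library does not depend on the scaling between libraries. The uroc1 level was 13.5 to 45.2 times that of amdhd1 in F2 mixture livers, against 1.14 to 13.4 times in F2 control livers. It was 2.13 to 16.6 times that of amdhd1 in F1 mixture livers, against 6.54 to 29.3 times in F1 control livers. The hal.2 level was 22.7 to 72.6 times that of amdhd1 in F2 mixture livers and 10.3 to 22.1 times in F2 control livers, groups that did not overlap. It was 21.0 to 43.5 times in F1 mixture and 31.6 to 69.0 times in F1 control livers, which overlapped. The library F2 control 4 had the highest uroc1 level, the highest ratio of uroc1 to amdhd1 and the highest ratio of hal.2 to amdhd1 of the F2 control livers. The median ratio of uroc1 to hal.2 was lowest in F1 mixture livers (0.173). It was 0.308 in F1 control, 0.316 in F2 control and 0.620 in F2 mixture livers. These ratios were chosen after the values had been seen.

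**Figure D2:**
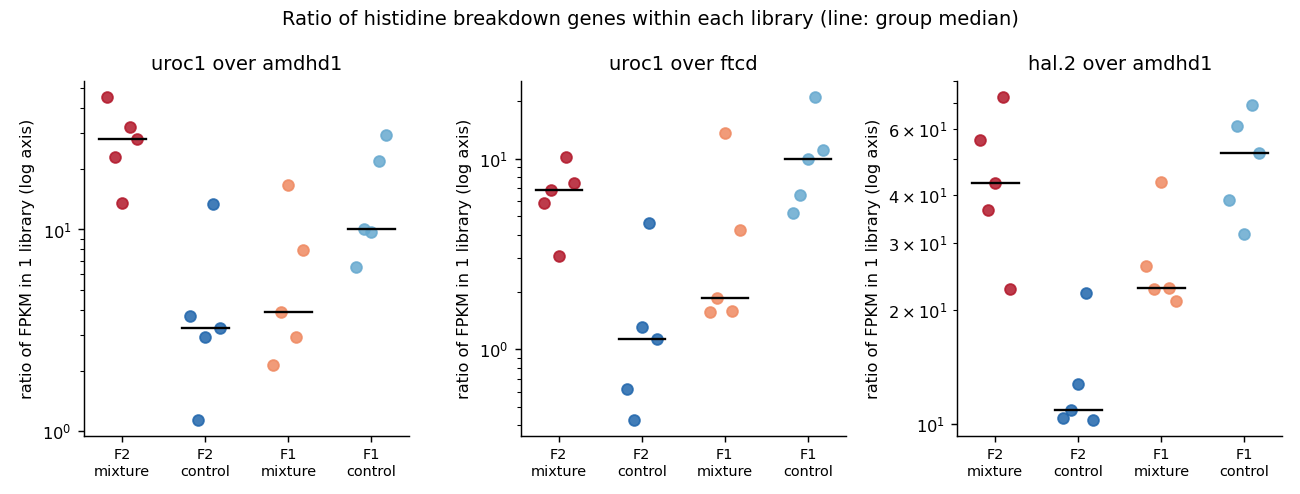
Ratio of the FPKM of 2 histidine genes within each library (log axis), by group, with a line at the group median. The F2 control livers have the lowest medians for uroc1 over amdhd1 (3.25), uroc1 over ftcd (1.14) and hal.2 over amdhd1 (10.9). The F1 mixture medians come next (3.92, 1.85 and 22.9).

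The methionine gene mat1a (chromosome 7, 50683235 to 50702432) showed the reverse order of groups in F2. It had 13.2, 3.20, 12.2, 7.26 and 3.39 scaled FPKM in F2 mixture livers, against 34.4, 20.5, 30.5, 36.7 and 13.8 in F2 control livers. It had 6.11, 6.47, 6.21, 5.89 and 7.39 in F1 mixture livers, against 2.34, 11.9, 4.30, 8.21 and 8.01 in F1 control livers. The F2 control livers lay above all other livers, without overlap but narrowly (lowest 13.8, against a highest of 13.2 in F2 mixture). The other 3 groups overlapped.

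The group means of mat1a were 7.86 ± 4.74 scaled FPKM in F2 mixture and 27.2 ± 9.73 in F2 control livers (SD, n = 5 each). They were 6.42 ± 0.58 in F1 mixture and 6.95 ± 3.72 in F1 control livers. The log2 fold change was -1.77 ± 0.37 in F2 (adjusted p = 0.00230 by limma) and 0.05 ± 0.37 in F1 (adjusted p = 0.968), and the effects differed by -1.82 ± 0.53 (adjusted p = 0.0214). The authors' deposited table gave -1.79 in F2 (q = 0.000955).

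The sister gene mat2a encodes the adenosyltransferase that, in mammals, is used outside the adult liver. It stood at 53.1 ± 45.8 scaled FPKM in F2 mixture and 40.1 ± 21.5 in F2 control livers, and at 10.1 ± 4.66 in F1 mixture and 6.28 ± 1.54 in F1 control livers. Its F2 log2 fold change was 0.19 ± 0.47 (adjusted p = 0.792), and the mat2a level was 2.97 to 10.1 times that of mat1a in F2 mixture livers, against 1.16 to 1.87 times in F2 control livers. In F1 this ratio was 0.572 to 2.49 in mixture and 0.504 to 2.58 in control livers.

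The gene of mitochondrial aspartate aminotransferase, got2 (chromosome 4, 75537842 to 75555234), had the smallest spread of the members. It had 48.2, 39.6, 66.1, 61.7 and 69.8 scaled FPKM in F2 mixture livers, against 98.4, 140, 111, 105 and 115 in F2 control livers. It had 67.4, 71.4, 46.5, 59.6 and 59.8 in F1 mixture livers, against 67.1, 78.8, 62.5, 44.1 and 70.0 in F1 control livers. As for mat1a, all F2 control livers lay above all other livers, and the other 3 groups overlapped. Of all tested genes 7.38% were lower in F2 mixture than in F2 control livers without overlap. Likewise 20.3% were higher in F2 control than in F1 control livers. The share above the other 3 groups at once was not computed.

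The group means of got2 were 57.1 ± 12.7 scaled FPKM in F2 mixture and 114 ± 16.1 in F2 control livers (SD, n = 5 each), and 60.9 ± 9.51 in F1 mixture and 64.5 ± 12.9 in F1 control livers. The log2 fold change was -1.0 ± 0.20 in F2 (adjusted p = 0.00164 by limma) and -0.07 ± 0.20 in F1 (adjusted p = 0.899). The effects differed by -0.93 ± 0.29 (adjusted p = 0.0276), a call lost when the fit was blocked by library number (0.106) and under 5 other alternatives, among them leaving out F1 mixture 4 (0.0523), F1 control 4 (0.0594) or F2 control 2 (0.0512). The authors' deposited table gave -0.96 in F2 (q = 0.0257).

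The tyrosine gene tat (chromosome 4, 59830788 to 59844806) varied more between livers than between groups. It had 590, 26.6, 268, 118 and 159 scaled FPKM in F2 mixture livers, against 199, 52.6, 222, 305 and 66.6 in F2 control livers. It had 34.8, 101, 92.8, 36.0 and 74.2 in F1 mixture livers, against 4.76, 61.4, 98.4, 129 and 196 in F1 control livers. The lowest and highest F2 values were both from mixture livers, and all groups overlapped. The log2 fold change was 0.15 ± 0.83 in F2 (adjusted p = 0.912; 0.77 without F2 mixture 2) and 0.01 ± 0.83 in F1 (adjusted p = 0.996).

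The gene of the next tyrosine enzyme, hpd (chromosome 1, 162113243 to 162125002), was barely detected. It had 0 to 0.0937 scaled FPKM in F2 mixture, 0.0422 to 0.162 in F2 control, 0 to 0.0670 in F1 mixture and 0.0211 to 0.0583 in F1 control livers, and was listed at 0 in 3 of 20 libraries. These values rest on 0 to 9 inferred fragments per library, so no difference between groups could be read from them. The authors' deposited table likewise has hpd as not tested in either generation.

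The members differed in how much livers of the same group varied. The SD within groups on the log2 scale was 1.46 for tat, larger than for 99.3% of tested genes, and 1.02 for uroc1, larger than for 97.4%. It was 0.64 for mat1a, 0.62 for ftcd, 0.41 for amdhd1 and 0.27 for got2, against a median of 0.34 over all tested genes. The deposited confidence limits were much narrower than this spread: their half-width was 1.37% to 7.5% of the value for uroc1, 4.27% to 10.4% for tat, 3.13% to 6.76% for got2 and 5.43% to 22.1% for mat1a. Each limit comes from 1 library, so it holds no spread between livers.

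In F2, 3 of the 6 tested members were called, uroc1 higher and mat1a and got2 lower in mixture livers. Over all tested genes 25.7% were called, 11.3% higher and 14.5% lower. The groups did not overlap for 2 members, mat1a and got2, against 15.4% of all tested genes. In F1, 0 of 6 members were called, as were 0% of all genes by limma at the adjusted threshold, while 12.8% of all genes had an unadjusted p under 0.05, among the members uroc1. The F2 effect differed from the F1 effect for 3 of 6 members (uroc1, mat1a and got2), against 20.1% of all genes. The authors' deposited table marked uroc1, mat1a and got2 in F2, against 20.3% of the genes it tested, and uroc1 in F1, against 2.43%. Nothing is read from these shares, since the levels in these groups were used to pick the members. The median log2 fold change of all tested genes was -0.04 in F2 and -0.02 in F1.

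The uroc1, mat1a and got2 calls in F2 held under all 32 alternatives, with log2 fold changes of 1.85 to 2.76, -1.99 to -1.46 and -1.09 to -0.88. Without the 3 libraries of lowest weight, an alternative chosen after seeing the data, the same 3 members were called, at 2.59, -1.46 and -0.94. Fewer cells of a type and less RNA per cell cannot be told apart in whole liver.

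Some markers of liver cell types differed in F2 too. Of 10 tested hepatocyte markers 0 rose, 3 fell and 7 were not called in F2 mixture against F2 control livers, with a median log2 fold change of -0.75, where 25.7% of all tested genes were called. The fibrinogen genes fga (-1.04 ± 0.34) and fgb (-2.0 ± 0.44) and the transferrin gene tf (-1.27 ± 0.34) fell, while ttr (1.24 ± 0.66) and ambp (0.40 ± 0.39) had values above 0 and were not called. Summed over 10 hepatocyte markers the level was 4897 to 15512 scaled FPKM, median 8634, in F2 mixture livers and 11646 to 18871, median 14907, in F2 control livers. This sum left out alb, which lacked a value in some libraries. It averaged 11190 in F2 mixture (n = 4) and 13347 in F2 control livers (n = 2). Summed over 12 erythrocyte markers the level was 5824 to 61720 scaled FPKM, median 20167, in F2 mixture livers. It was 24131 to 68139, median 46929, in F2 control livers, and 1 of 11 tested, rhag, fell (-1.37 ± 0.47). The erythrocyte sum left out the globin gene hba1, which lacked a value in some F1 mixture livers. This gene averaged 53192 ± 41292 in F2 mixture and 64168 ± 29562 in F2 control livers (SD, n = 5 each). The median sum of 8 macrophage and leukocyte markers was 120 in F2 mixture and 107 in F2 control livers, while 2 of the 8, csf1r (-0.71 ± 0.24) and lcp1 (-1.13 ± 0.32), fell. That of 7 endothelial markers was 22.4 in F2 mixture and 28.4 in F2 control livers, and 2 of 4 tested, cdh5 (-0.68 ± 0.14) and tek (-0.78 ± 0.23), fell. That of 8 stellate cell and fibroblast markers was 76.6 in F2 mixture and 71.2 in F2 control livers, and of 5 tested col1a1 (0.92 ± 0.34) and col3a1 (0.66 ± 0.19) rose and dcn (-0.94 ± 0.26) fell. For 5 bile duct markers it was 388 in F2 mixture and 545 in F2 control livers, and 1 of 4 tested, krt7, fell (-0.85 ± 0.28). For 5 pigment cell markers it was 0.551 in F2 mixture and 2.12 in F2 control livers, and the 1 tested, pmel, fell (-1.13 ± 0.35). The amylase gene amy2a rose in F2 mixture livers (2.12 ± 0.65). In F1 mixture against F1 control livers 0 of 10 tested hepatocyte markers (median 0.77) and 0 of 11 erythrocyte markers (median 0.71) were called. Of all tested genes 0% were called there, so these counts do not show unchanged markers. Of the 10 hepatocyte values 8 were positive. By an unadjusted p under 0.05 (limma) fga, fgg, ttr, ambp and ahsg were higher and apoa1 lower. Over all tested genes 12.8% had such a p. The median hepatocyte sum was 11481 in F1 mixture and 6393 in F1 control livers, and the median erythrocyte sum was 50086 and 13197. For the F2 effect minus the F1 effect 5 of 10 hepatocyte markers were lower and 0 higher (median -1.53). Of all tested genes 20.1% were called there. Of 11 erythrocyte markers 1 was lower (median -0.93). Among endothelial (4 tested) and among stellate cell and fibroblast markers (5 tested) 1 each was lower, and 0 of these were higher. The part of these differences in the results was not tested.

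**Figure D3:**
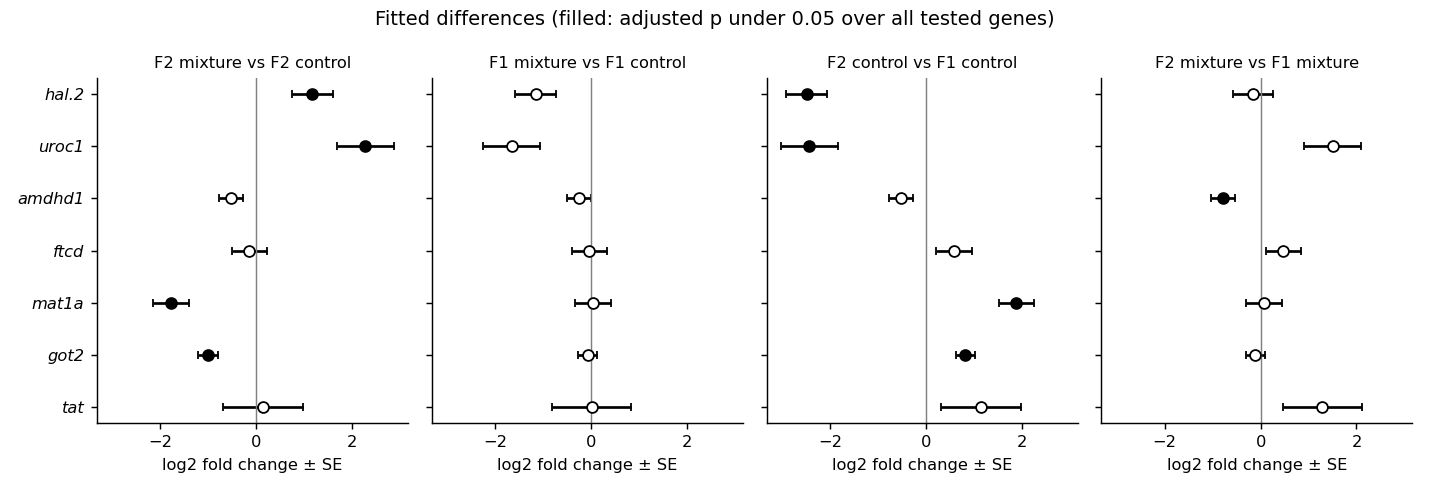
Log2 fold change ± SE of hal.2 and the 6 tested members in 4 comparisons, each panel named with its first group over its second, with filled circles for an adjusted p under 0.05 by limma over all tested genes. In F2 mixture against F2 control livers uroc1 (2.28) and mat1a (-1.77) lie on opposite sides of 0. No gene shown was called in F1, where 0% of all tested genes were called.

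Between generations 3 members were called among control livers and 1 among mixture livers. For F2 control against F1 control livers the log2 fold change was -2.43 for uroc1, 1.89 for mat1a and 0.82 for got2 (adjusted p = 0.00183, 0.000312 and 0.00194 by limma), so 3 of 6 members were called, against 55.9% of all tested genes. The values of amdhd1, ftcd and tat were -0.52, 0.59 and 1.15 (adjusted p = 0.0820, 0.183 and 0.246). The groups did not overlap for mat1a, got2 and amdhd1, against 41.7% of all tested genes. For F2 mixture against F1 mixture livers 1 of 6 members was called, against 14.2% of all tested genes. This was amdhd1, lower in F2 (-0.79, adjusted p = 0.0414), and the call was lost under 10 of 32 alternatives, among them leaving out F1 mixture 1 (0.123), 4 (0.0700) or 8 (0.0576) or F2 mixture 1 (0.0808) or 2 (0.0958). The other values there were 1.5 for uroc1, 0.48 for ftcd, 0.07 for mat1a, -0.11 for got2 and 1.29 for tat.

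Some cell type markers differed between generations as well. In F2 control against F1 control livers 5 of 10 tested hepatocyte markers were called higher and 0 lower, against 55.9% of all tested genes called. All 10 had positive values, and their median log2 fold change was 1.31. Of 11 tested erythrocyte markers 4 were called higher and 0 lower (median 1.22), and amy2a was lower (-3.10 ± 0.65). Of 4 tested endothelial markers 2 were higher and 2 lower, and of 5 stellate cell and fibroblast markers 1 was higher and 2 lower. Of 8 macrophage and leukocyte markers 0 were higher and 2 lower, and of 4 bile duct markers 1 was higher and 0 lower. The 1 tested pigment cell marker was not called. In F2 mixture against F1 mixture livers 0 of 10 hepatocyte markers (median -0.24) and 0 of 11 erythrocyte markers (median 0.02) were called. There 2 of 4 endothelial markers (median -0.57) and 1 of 8 macrophage and leukocyte markers (median -0.52) were lower, and 0 were higher. Of the other lists, 0 of 5 stellate cell and fibroblast, 0 of 4 bile duct and 0 of 1 pigment cell markers were called, nor was amy2a. Of all tested genes 14.2% were called in that comparison. The part of these markers in the differences between generations was not tested.

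The comparison of F2 mixture with F2 control and that of F2 control with F1 control share the F2 control livers, so opposite signs in them are not separate evidence. By group mean uroc1 was highest in F1 control, then F2 mixture, F1 mixture and F2 control livers, and each group overlapped the next. For got2 the order was F2 control, F1 control, F1 mixture and F2 mixture, and for mat1a it was F2 control, F2 mixture, F1 control and F1 mixture. In both, F2 control stood clear of the next group, for mat1a narrowly (13.8 against 13.2 scaled FPKM), and the remaining neighbours overlapped. For ftcd the order was F2 control, F2 mixture, F1 control and F1 mixture, and for tat it was F2 mixture, F2 control, F1 control and F1 mixture, with each neighbour overlapping. For amdhd1 the F1 control livers came first, F1 mixture next, then F2 control, with F2 mixture lowest, again with overlap.

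Other genes of amino acid breakdown were counted from lists drawn up with earlier results of these data known. Over 10 lists of enzymes and carriers, 93 genes other than the members were tested, and in F2 mixture against F2 control livers 5 rose, 16 fell and 72 were not called. The median log2 fold change was -0.19. Thus 22.6% of these genes were called, against 25.7% of all tested genes (11.3% higher and 14.5% lower). By list the share was 42.9% for branched-chain, 37.5% for glycine, serine and threonine, and 27.3% for transaminase genes. It was 16.7% for tyrosine, 16.7% for shuttle and 15.4% for methionine genes. For lysine, proline and arginine it was 10%, for folate 9.09% and for tryptophan 0%. The histidine list held hal.2 alone, which was called. In F1, 0 of the 93 and 0% of all tested genes were called, so this count says nothing particular about these genes. Their median log2 fold change was 0.20 there. Without the 3 libraries of lowest weight 8 rose and 16 fell in F2, and over all alternatives 2 to 8 rose and 13 to 19 fell. The fewest falls came without F2 mixture 4 (3 rose and 13 fell).

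In the methionine cycle and transsulfuration list 13 genes other than mat1a were tested in F2, of which 1 rose, 1 fell and 11 were not called. The gene of sarcosine dehydrogenase, sardh, which recovers methyl groups as folate units, rose, with 195 ± 112 scaled FPKM in F2 mixture and 60.3 ± 27.7 in F2 control livers (log2 fold change 1.57 ± 0.36, adjusted p = 0.00371 by limma). The gene of phosphatidylethanolamine methyltransferase, pemt, a large user of S-adenosylmethionine in mammalian liver, fell, with 6.16 ± 2.03 in F2 mixture and 16.6 ± 5.73 in F2 control livers (-1.29 ± 0.33, adjusted p = 0.00746). Genes not called included gnmt, glycine methyltransferase (-0.23 ± 0.34), ahcy, which clears the product S-adenosylhomocysteine (0.07 ± 0.39), and bhmt, which makes methionine from betaine (-0.96 ± 0.48). The transsulfuration genes cbs and cth stood at 0.63 ± 0.25 and -0.36 ± 0.53 (adjusted p = 0.0667 and 0.644).

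In the phenylalanine and tyrosine list 6 genes other than tat and hpd were tested in F2, of which 0 rose, 1 fell and 5 were not called. The one that fell was pcbd1, which recycles the cofactor of phenylalanine hydroxylase and also binds the transcription factor HNF1. It had 36.7 ± 16 scaled FPKM in F2 mixture and 112 ± 23.2 in F2 control livers, without overlap (-1.68 ± 0.32, adjusted p = 0.00126 by limma), and 49.9 ± 19.7 in F1 mixture and 24.7 ± 9.80 in F1 control livers (0.97 ± 0.32, adjusted p = 0.285). The hydroxylase gene pah stood at -0.37 ± 0.33 and the cofactor reductase gene qdpr at 0.21 ± 0.33. Downstream of hpd, the genes hgd, gstz1 and fah stood at 0.81 ± 0.46, -0.89 ± 0.35 and -0.24 ± 0.56, and none was called. All 3 were well expressed, with group means of 17.1 to 117 scaled FPKM, while hpd lay under 0.1 in every group mean.

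In the list of transaminases and glutamate handling 11 genes other than got2 were tested in F2, of which 0 rose, 3 fell and 8 were not called. The cytosolic partner of got2, got1, fell, with 20.6 ± 5.29 scaled FPKM in F2 mixture and 43.0 ± 11.9 in F2 control livers (-1.03 ± 0.28, adjusted p = 0.0124 by limma). The liver glutaminase gene gls2 (-1.23 ± 0.33) and aadat, an aminotransferase of the mitochondrion acting on aminoadipate and kynurenine (-1.02 ± 0.25), fell as well. In the malate-aspartate shuttle, which uses both got1 and got2, 1 of 6 genes other than got2 fell (got1) and 0 rose.

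Of 21 genes of branched-chain amino acid breakdown 8 fell, 1 rose and 12 were not called in F2. The falls included those of mcee, of propionate handling (-1.42 ± 0.19), and auh, of leucine breakdown (-0.97 ± 0.22). The rise was that of the transaminase gene bcat2, at 3.22 ± 2.26 scaled FPKM in F2 mixture and 1.11 ± 0.28 in F2 control livers (0.83 ± 0.27, adjusted p = 0.0294 by limma). It was lost under 8 of 31 alternatives, among them the fit blocked by library number (0.05001) and leaving out F2 mixture 3 (0.0888) or 4 (0.103) or F2 control 1 (0.0547), 2 (0.0606) or 3 (0.0579).

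Of 8 tested genes of glycine, serine and threonine breakdown 1 rose, srr, serine racemase (0.63 ± 0.18), and 2 fell, both parts of the glycine cleavage system: gcsh (-1.03 ± 0.24) and dld (-0.64 ± 0.18, a call lost without F2 mixture 4 at an adjusted p = 0.05002). The srr call was lost without scaling between libraries (0.0965). Of 11 tested genes of one-carbon folate handling 1 rose, aldh1l2, a mitochondrial enzyme that oxidises formyl-folate (1.21 ± 0.28, adjusted p = 0.00437 by limma), and 0 fell. Of 10 genes listed under lysine, proline and arginine 1 fell, phyh (-0.83 ± 0.16), whose product is known for the oxidation of phytanic acid and not for an amino acid. Of 8 tryptophan genes 0 were called.

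**Figure D4:**
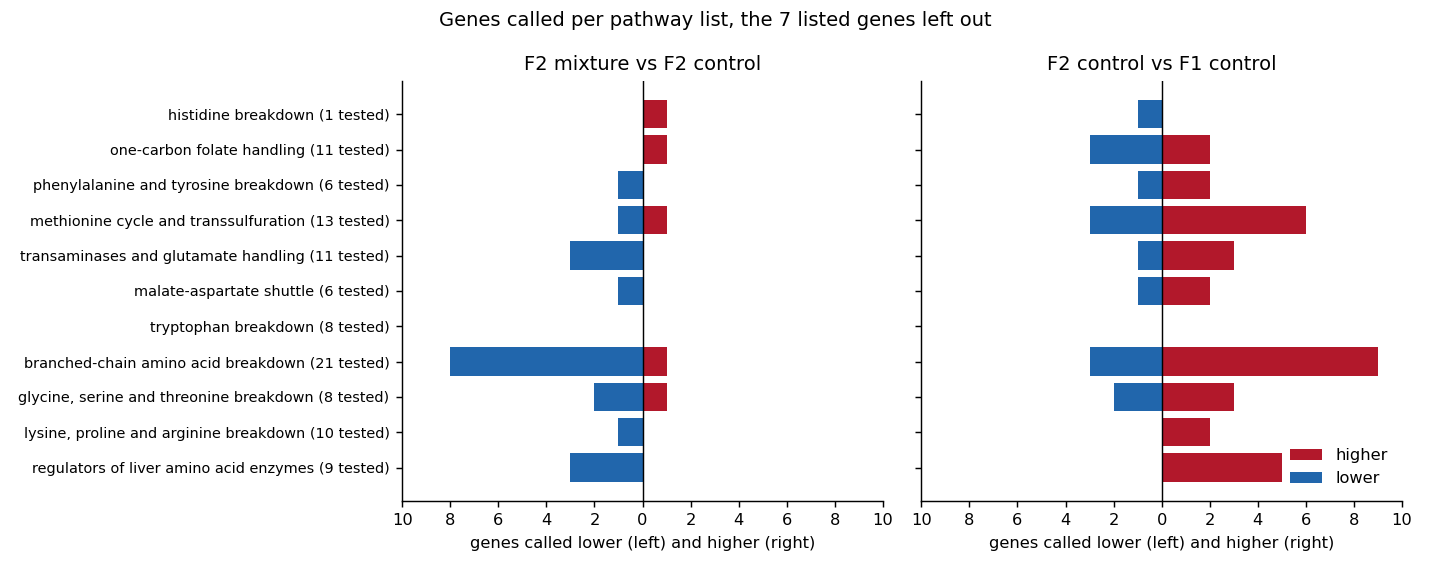
Number of genes called lower (bars to the left) and higher (bars to the right) per list by limma at an adjusted p under 0.05, with the 7 genes themselves left out and the number tested beside each list. In F2 mixture against F2 control livers most calls are lower, as for 8 of 21 branched-chain genes. Of all tested genes 14.5% were called lower and 11.3% higher there. The same F2 control livers enter the right panel as its first group. There, with each gene counted once, 34 of 102 genes were higher and 15 lower. That is 48% called, against 55.9% of all tested genes.

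Of 9 tested regulators of liver amino acid enzymes 3 fell in F2 mixture livers and 0 rose, so 33.3% were called, against 25.7% of all tested genes. The largest fall was that of klf15, which in mouse liver drives amino acid breakdown, with 1.87 ± 2.88 scaled FPKM in F2 mixture and 6.99 ± 3.49 in F2 control livers (-1.79 ± 0.36, adjusted p = 0.00175 by limma; -2.70 with a pseudocount of 0.1). In F1 klf15 stood at 0.29 ± 0.16 in mixture and 0.29 ± 0.23 in control livers. The F2 control livers, its highest group, carried klf15 over the filter on low values. Its F2 call and its place among the 3 are therefore a description. The genes hnf4a, a master regulator of hepatocytes (-0.74 ± 0.20), and foxo3, a forkhead factor held back by insulin signalling (-0.87 ± 0.27), fell too. The foxo3 call was lost under 6 of 31 alternatives, among them leaving out F2 mixture 4 (0.0768) or 5 (0.0726) or F2 control 2, 3 or 4 (0.0503, 0.0587 and 0.0527). In F2 control against F1 control livers 5 of the 9 regulators were higher and 0 lower (55.6%, against 55.9% of all tested genes). In F2 mixture against F1 mixture livers 4 were higher and 2 lower (66.7%, against 14.2%). The 9 include klf15, and these counts too are a description.

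The genes most like each member were sought over the 20 libraries among 10193 genes, by Pearson's r of log2 levels. This is a description, since the points share library, depth and group. For uroc1 they were chd5 (r = 0.85, rho = 0.84) and cdc37 (0.84, 0.86), and for amdhd1 adgrl2 (0.90, 0.84) and cyp4b1 (0.89, 0.70). For ftcd they were MGC108450 (0.82, 0.70) and LOC100494099 (0.80, 0.76), and for mat1a noct (0.85, 0.76) and spint2 (0.85, 0.78). For got2 they were fgfrl1 (0.92, 0.83) and mpp1 (0.90, 0.80), and for tat arg1, arginase of the urea cycle (0.85, 0.82), and LOC101730350 (0.82, 0.77). After the group means had been taken out, r of these genes with their members was 0.60 (mpp1 with got2) to 0.88 (cyp4b1 with amdhd1).

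Between members r within groups was -0.21 (uroc1 with got2) to 0.76 (mat1a with tat). Taking uroc1 with the rest of its chain, r was 0.71 with hal.2, 0.07 with amdhd1 and 0.05 with ftcd. For hal.2 with amdhd1 r was 0.59 over all libraries and 0.70 within groups. For amdhd1 with ftcd these values were 0.14 and 0.61, and for hal.2 with ftcd -0.07 and 0.41. Within groups, r for uroc1 was 0.57 with hal.2 and 0.67 with tat, and that for got2 with amdhd1 was 0.64. The r of mat1a with got2 was 0.67 over all libraries and -0.01 within groups. Without the 2 libraries farthest in uroc1 level, r of uroc1 with hal.2 was 0.63. Without the 2 farthest in amdhd1 level, r of amdhd1 was -0.40 with ftcd, 0.54 with hal.2, 0.73 with adgrl2 and 0.70 with cyp4b1. The r of amdhd1 with ftcd thus changed sign with 2 libraries left out.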

How the data were processed

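Liver mRNA was sequenced in 20 libraries, 5 per group, grouped by the labels. Per the submitters' processing notes the authors used Trimmomatic 0.32.1, HISAT2, Cufflinks 0.0.7 and Cuffdiff 0.0.7, and the deposited tables hold FPKM per gene with confidence limits and a status, per the file headers. No label or header names the genome build. Of 20372 named genes 20163 (99.0%) have the start and end listed for assembly UCB_Xtro_10.0, so the coordinates, counted from 1, are given for it. The authors' deposited comparison tables hold mean FPKM, log2 fold changes, a test score, p-values and q-values, per the file headers. They were used where the text names them.

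Each library table had 20442 lines, and 70 without a gene name (at most 0.00856% of the summed FPKM) were left out. Values not marked OK (in 47 genes) were set to missing. FPKM was divided by the library's median ratio to the geometric mean over 6971 genes (factors 0.717 to 1.26), and log2 was taken after adding a pseudocount of 1, which understates changes of low genes. Genes averaging at least 1 FPKM with 3 OK values per group were tested with limma 3.58.1 in R 4.3.3: 10228 genes, all 20 libraries in 1 model of 4 group means, variance trend, two-sided, Benjamini-Hochberg adjustment over all tested genes, threshold 0.05. The procedure was tested on simulated data. Fragments were inferred by taking the deposited limits as 2 Poisson SD on each side. For tat this gave 2199 fragments at an FPKM of 423 (F2 mixture 1) and 1232 at 30.7 (F2 mixture 2). The limits of some genes thus seem to hold more than counting error, and inferred fragments and depth are rough. No 2 of the 20 libraries were copies: at most 0.0104% of values above an FPKM of 1 were equal in any of 190 pairs.

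The members, lists, alternatives and the rule for named genes were chosen with earlier results of these data known. The rule names the 7 members, any gene of the histidine, tyrosine and methionine lists, of the other lists the called F2 genes with the 3 smallest p-values per direction, and the 2 genes most like each member. Marker genes and ratios named beside it were chosen after their values had been seen. Listed genes without a row were not analysed here, and 1 gene the rule names is not reported here.

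Library numbers were checked for pairing. The deviations of same-numbered F2 mixture and F2 control libraries from their group means correlated at 0.385, 0.369, 0.154, 0.104 and 0.169. By a rule of every pair over 0.1 the numbers pair the F2 libraries. Only F2 mixture 1, 2 and 5 were most like the control library of their own number. F2 mixture 3 and 4 were more like a control library of another number, so the pairing is uncertain. The labels do not say what a number marks. In the other comparisons they did not pair. For 2 F1 mixture libraries, 9 and 13, file name and title carry each other's number, and the title was used.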

Additional observations from a re-analysis of the deposited data

Results flagged for a closer look

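Of 36 levels of members, hal.2 and hal.1 checked within groups of 5, 1 had a library far from the other 4: F2 control 4, at 176 scaled FPKM of uroc1. Such a check picks about 1 in 20 groups by chance if the values are normally distributed. It was made on scaled FPKM and not on the log2 scale of the fold changes. Without that library the F2 log2 fold change of uroc1 was 2.76, against 2.28 with it.

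The mixture effect in F2 minus that in F1 was tested in 40 genes that the text could name, with the adjustment over all tested genes by limma. It passed in 17 of them, against 20.1% of all tested genes. Nothing is read from this count, since 14 of these genes were chosen by their F2 p-values and 6 are members picked with these levels known. It passed for 3 of 6 members, which were picked with these levels known: uroc1 (3.93), mat1a (-1.82) and got2 (-0.93), all on the log2 scale. Of 20 other genes of the histidine, tyrosine and methionine lists, which were taken whole, it passed for 4: hal.2 (2.33), pcbd1 (-2.65), bhmt (-1.92) and pemt (-2.08).

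A further 14 genes had been chosen by their small p-values in F2, so a pass there partly restates the F2 call. Values for the 10 that passed were 1.3 for aldh1l2, 1.0 for srr, -1.35 for got1, -1.72 for mcee, -1.21 for auh, -1.50 for gcsh, -0.93 for dld, -1.12 for phyh, -1.80 for klf15 and -0.92 for hnf4a. For klf15 both F1 groups averaged 0.29 scaled FPKM, under the filter of 1, so with a pseudocount of 1 its F1 effect is held near 0 and the difference adds nothing to its F2 fold change. All of these differences include the F2 control livers.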

How the results depend on the processing

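All results were recomputed under 12 other settings and without each of the 20 libraries. Of 954 such values for single members 932 stayed on their side of the threshold, 16 lost a call, 6 gained one and 0 reversed a call. Most of these results had not been called at all, so the total overstates how firm the calls are. The losses were 6 of 31 for the got2 difference between effects and 10 of 32 for amdhd1 in F2 mixture against F1 mixture. With the library number as a replicate block, 3 members and 2780 genes were called in F2, and no F2 call of a member changed. The block left 257 genes for the difference between effects (2052 without it) and ended the got2 call there (adjusted p = 0.106). It left 322 genes and 0 members for F2 mixture against F1 mixture (1450 and 1 without it), gave 15 in F1 and made amdhd1 a call in F2 control against F1 control (0.0303). In the comparisons with F1 livers the numbers did not pair the libraries. F1 mixture shares only numbers 1 and 4 with F1 control, and likewise with F2 mixture. A library of unshared number forms its own block. With the block, the F1 effect and F2 mixture against F1 mixture thus rest on numbers 1 and 4 alone. The difference between effects holds that F1 effect. The part of this in the changed counts was not tested. For F2 mixture against F1 mixture the 1 member called, amdhd1, became 0 with no filter, with arrayWeights, with only the 2 groups in the fit, and without the 3 libraries of lowest weight (an alternative chosen after seeing the data), and it was 0 to 1 with 1 library left out.

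A filter at a mean FPKM of 5 or more tested fewer genes and called 1486 in F2, 1358 for the difference, 3146 in F2 control against F1 control and 753 in F2 mixture against F1 mixture. With arrayWeights 1129 genes were called in F1, 3864 for the difference and 784 in F2 mixture against F1 mixture, and with only the 2 groups 484 in that last comparison. Without the 3 libraries of lowest weight the counts were 8 in F1, 3195 for the difference and 752 in F2 mixture against F1 mixture. The F1 count was 0 in the report, 3 with no scaling, 1 by quantile normalization, 4 with no filter and 3 with the length trend removed (by a length inferred from the deposited limits). With 1 library left out it was 0 to 24, highest without F1 mixture 8 and 21 without F1 control 3, and F2 mixture against F1 mixture gave 770 (without F1 mixture 1) to 1513. With no scaling the median of all genes moved to -0.22 in F2 control against F1 control and -0.21 in F2 mixture against F1 mixture. The share of calls that were higher was then 31.8% in F2 (43.8% with scaling), 36.3% in F2 control against F1 control (49.0%) and 18.2% in F2 mixture against F1 mixture (42.8%). The values of hpd and hal.1 rest on at most 9 and 34 inferred fragments. Whether the low hpd level lies in the liver or in the annotation of its locus was not tested.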
